A study of Mus musculus with 2 samples.

Results

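Expression of 10 imprinted genes that control growth and stem cell quiescence was compared in mouse hematopoietic stem cells (HSCs). The HSCs were positive or negative for a reporter of Satb1. SATB1 is a nuclear protein that folds chromatin and is known mainly from lymphocytes. The genes were H19, Igf2, Igf2r, Meg3, Dlk1, Ndn, Grb10, Peg3, Mest and Plagl1, picked by gene symbol, and all 10 had a row among the 23210 genes used. RNA sequencing covered 2 groups of 1 library each: Satb1-Tomato-positive (SATB1-positive) HSCs and Satb1-Tomato-negative (SATB1-negative) HSCs. All cells came with the fluorescent protein Tomato as a reporter for Satb1. Cells of either fraction were LSK cells (without lineage markers, with Sca-1 and Kit), CD150-positive and Flt3-negative. The labels give no strain, age, treatment or number of animals per library, and no second library of either kind was analysed here. The comparison asks whether growth control genes under imprinting are expressed differently in HSCs positive for the Satb1 reporter than in HSCs negative for it.

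An imprinted gene is transcribed mainly from the copy inherited from a single parent, because DNA methylation laid down in the egg or sperm marks the copies differently at control regions. Many paternally expressed imprinted genes promote growth of the fetus and many maternally expressed genes restrain it. Several are active in tissue stem cells, and in mouse HSCs the H19-Igf2 and Dlk1-Meg3 loci and Ndn have been tied to quiescence or self-renewal. H19, Meg3, Igf2r and Grb10 are usually expressed from the maternal copy, and Igf2, Dlk1, Ndn, Mest, Peg3 and Plagl1 from the paternal copy. The files do not separate the parental copies, so each value below is the sum of both.

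Values are FPKM as deposited, fragments per kilobase of transcript scaled to library size, which can be compared between genes because they are per length. Satb1 was at 8.26 FPKM in the SATB1-positive library and 2.37 FPKM in the SATB1-negative library, the direction of the labels. Depth was estimated at about 26680000 and 34920000 fragments in the SATB1-positive and SATB1-negative library. With 1 library a group no test across animals exists and no p-value was computed. Intervals beside folds are exact (Clopper-Pearson) 95% intervals on the split of estimated fragments. They cover counting error only, not the spread between animals or sorts, and PCR copies can make them too narrow. The log2 ratio is that of SATB1-positive over SATB1-negative FPKM after adding 1 to each. The rule of size calls a gene higher (ratio of 1 or more) or lower (-1 or less) if it also reaches 5 FPKM in its higher library.

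The sequences before the start sites are shown for the 5 genes whose counting interval lay wholly below 1. This choice was made from the values themselves and lends no support to a shared direction. Igf2, whose interval lay below 1 only over its longest transcript (0.242 to 0.973), is left out. Each is the 250 bases before an annotated start, read 5′ to 3′ on the gene's own strand from RefSeq on build GRCm38.p6, the same assembly as mm10. Grb10 has 2 such windows in the table and Mest 3; for Grb10 the one with more CpG pairs is shown, and for Mest 1 of the 2 overlapping ones that hold the letters below. Capitals mark the letters TGCCGC or their reverse complement GCGGCA, the core that the imprint-protecting zinc finger protein ZFP57 is known to bind when methylated. The windows are chr7:62348027-62348276 (plus strand) for Ndn, chr11:12037421-12037670 (minus strand) for Grb10, chr6:30737800-30738049 (plus strand) for Mest, chr7:6730420-6730669 (minus strand) for Peg3 and chr10:13090582-13090831 (plus strand) for Plagl1.
Ndn: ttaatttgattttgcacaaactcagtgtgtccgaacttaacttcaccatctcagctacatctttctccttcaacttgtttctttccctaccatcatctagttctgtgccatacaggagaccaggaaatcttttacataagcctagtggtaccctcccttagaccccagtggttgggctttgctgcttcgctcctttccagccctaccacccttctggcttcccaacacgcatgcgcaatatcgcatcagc
Grb10: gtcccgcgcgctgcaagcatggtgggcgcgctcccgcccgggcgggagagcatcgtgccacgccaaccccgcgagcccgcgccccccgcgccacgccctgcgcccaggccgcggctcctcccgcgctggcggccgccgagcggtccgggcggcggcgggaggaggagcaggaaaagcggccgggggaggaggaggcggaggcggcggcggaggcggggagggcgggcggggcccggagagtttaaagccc
Mest: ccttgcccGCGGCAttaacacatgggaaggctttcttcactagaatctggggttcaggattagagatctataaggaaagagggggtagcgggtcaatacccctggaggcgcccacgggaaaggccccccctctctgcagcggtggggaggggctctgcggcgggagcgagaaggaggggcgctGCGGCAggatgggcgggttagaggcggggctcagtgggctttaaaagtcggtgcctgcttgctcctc
Peg3: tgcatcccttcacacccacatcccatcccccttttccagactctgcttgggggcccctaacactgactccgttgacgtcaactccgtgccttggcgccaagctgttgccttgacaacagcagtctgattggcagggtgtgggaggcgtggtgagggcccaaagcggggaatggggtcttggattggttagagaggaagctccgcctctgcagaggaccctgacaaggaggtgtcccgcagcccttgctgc
Plagl1: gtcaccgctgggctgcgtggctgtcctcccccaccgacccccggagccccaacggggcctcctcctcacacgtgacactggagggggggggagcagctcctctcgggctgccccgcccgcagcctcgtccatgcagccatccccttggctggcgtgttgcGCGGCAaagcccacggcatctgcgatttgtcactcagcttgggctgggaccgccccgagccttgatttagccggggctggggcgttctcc

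Of the 10 genes, 9 had 16 such windows in the RefSeq table, and 4 of the 16 held TGCCGC on either strand: 2 overlapping windows of Mest with 2 matches each, and 1 window each of Plagl1 and Meg3 with 1 match. Among all 32851 windows of this length, 8.68% held it. The letters themselves hold a CpG pair, and these windows were not matched to the 16 for CpG content, so the shares do not measure enrichment. The letters AAGATGG, a core of the motif of the factor YY1, searched on both strands, were in 0 of the 16 windows and in 4.49% of all. A match is a description of letters, not a binding site, and a missing match says only that these letters are not in the window. The density of CpG pairs, where DNA methylation falls, ranged widely among the 5 printed windows. The Grb10 window, printed because it had more CpG pairs, had 40, a number reached by 1.31% of all windows. That rank depends on the choice of window. The median window had 6, and the other Grb10 window, not shown, had 8, a number reached by 43.0% of all windows. The Mest window that is not shown and does not overlap had 7 and held no TGCCGC. Plagl1 had 19, Mest 14, Peg3 8 and Ndn 5.

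The 10 genes spanned a wide range of levels. Ndn and Grb10 stood above 5 FPKM, Igf2r and Meg3 were at about 3 FPKM in both libraries, Mest reached 1 FPKM in the SATB1-negative library alone, and Dlk1, H19, Plagl1, Peg3 and Igf2 were under 1 FPKM in both. Their levels summed to 38.0 FPKM in SATB1-positive and 59.8 FPKM in SATB1-negative HSCs, a fold of 0.636, and Ndn with Grb10 made up 77.3% and 83.3% of it. Without these 2 genes, a split chosen after their values were seen, the sum of the other 8 was 8.65 against 10.0067 FPKM, a fold of 0.864. Ordered by level in the SATB1-negative library, Ndn and Grb10 exchanged places in the SATB1-positive library, as did Mest with Dlk1 and Plagl1 with H19. The exchanges of Mest with Dlk1 and of Plagl1 with H19 rest on few fragments, between 16 and 133 per gene and library.

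**Figure D1:**
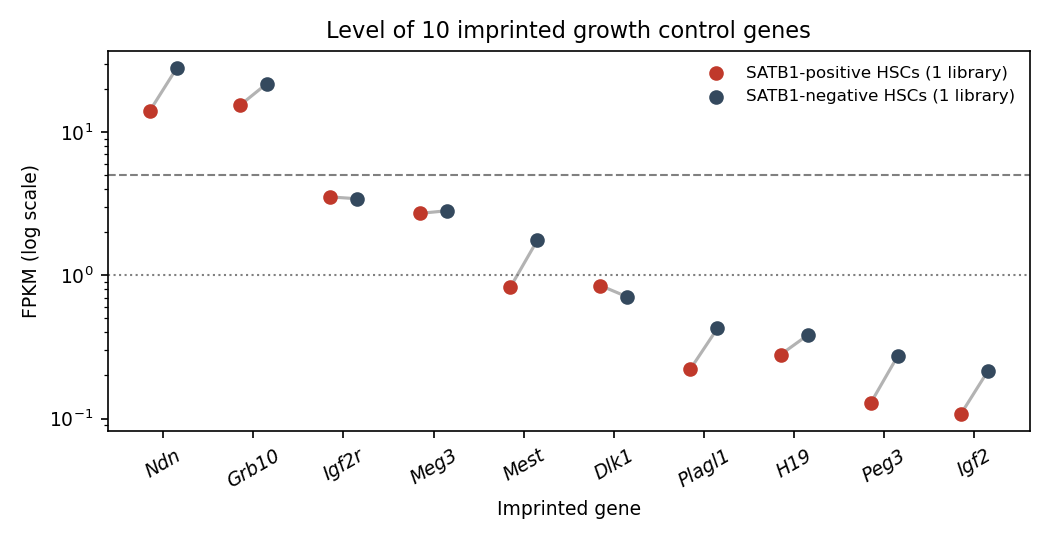
FPKM (log scale) of each of the 10 imprinted genes, with 1 point for the SATB1-positive library (left of each pair) and 1 for the SATB1-negative library (right). The dotted line marks 1 FPKM and the dashed line 5 FPKM. Ndn stands at 14.04 and 28.0 FPKM and Grb10 at 15.4 and 21.8 FPKM, while Igf2, the lowest, stands at 0.107 and 0.214 FPKM.

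None of the 10 met the rule of size in either direction: 0 were higher, where 1.31% of 9308 genes that reached 5 FPKM were called higher, and 0 were lower, where 0.688% were called lower. Only Ndn and Grb10 had the 5 FPKM that the rule asks for. On the plain FPKM scale, 8 of the 10 had a lower value in the SATB1-positive library, beside 50.1% of 15388 genes that reached 0.1 FPKM, a minimum all 10 reached and one chosen after the values were seen. The exceptions were Igf2r and Dlk1. A fold at least 1.5 times lower was found for 5 of the 10 (Ndn, Mest, Peg3, Plagl1 and Igf2), beside 11.7% of those genes, and a fold at least 1.5 times higher for 0, beside 12.6%. Among the lower genes, Igf2 rests on about 1 and 3 fragments of its shortest transcript, and Mest may share fragments with the overlapping gene Copg2. The counting interval lay wholly below 1 for 5 of the 10 (Ndn, Grb10, Mest, Peg3 and Plagl1), beside 27.1% of 13617 genes with a fragment estimate, and wholly above 1 for 0, beside 27.9%. That background shows that counting intervals often exclude 1 between these 2 libraries. Of the 5 genes that reached 1 FPKM, 4 had a ratio below 0, beside 51.0% of 11873 genes, 2 were at least 1.5 times lower, beside 6.58%, and 0 at least 1.5 times higher, beside 6.25%. Their interval lay below 1 in 3, beside 31.5% of 10571 genes, and above 1 in 0, beside 31.8%. These counts are no support for a direction, because Mest passed that minimum through the SATB1-negative library alone. The median log2 ratio over all 10 was -0.15, against -0.00066 over the 15388 genes, and the median fold of FPKM was 0.612 against 0.993.

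**Figure D2:**
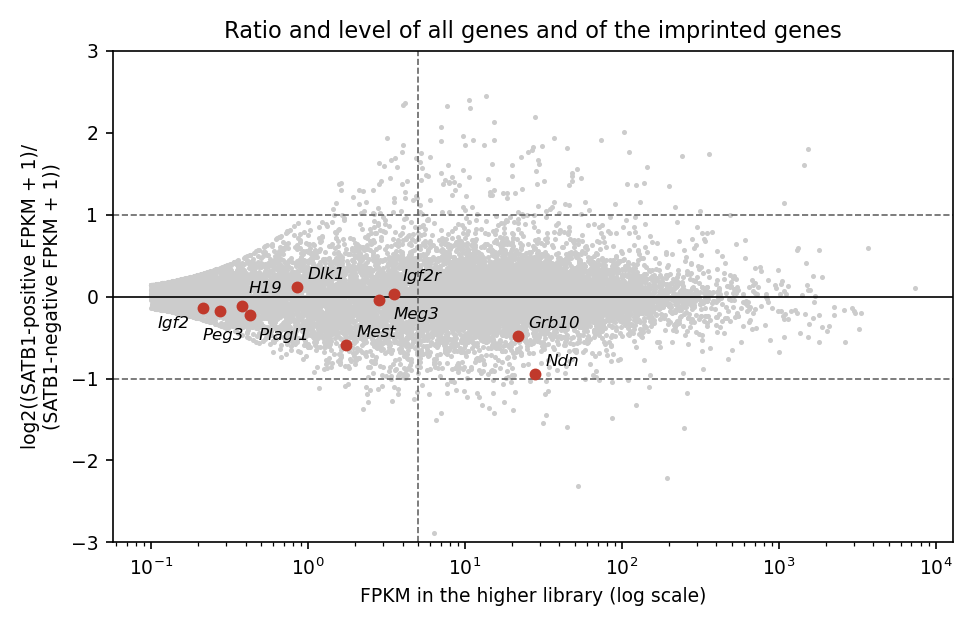
The log2 ratio of (SATB1-positive FPKM + 1) to (SATB1-negative FPKM + 1) against the FPKM of the higher library (log scale), for all genes with at least 0.1 FPKM (grey; the y axis leaves out the most extreme) and the 10 imprinted genes (red). Dashed lines mark the rule of size; Ndn, at -0.95, lies just inside it.

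Ndn encodes necdin, a protein of the MAGE family that restrains the cell cycle by binding E2F factors and p53. It was at 14.04 FPKM in the SATB1-positive library and 28.0 FPKM in SATB1-negative HSCs, a fold of 0.501 (0.453 to 0.554; about 542 and 1415 fragments). These fragments are for a RefSeq length of 1652 bases. Over the longest annotated transcript the same values stand for about 1307 and 3412 fragments, with an interval of 0.470 to 0.535. The log2 ratio of -0.95 was just short of the rule of size, and 57 of the 7561 genes that reached 10 FPKM somewhere, 0.754%, had a lower ratio. Ndn was the most abundant of the 10 in the SATB1-negative library, above 83.5% of all genes, and above 73.3% in the SATB1-positive library. The gene (ENSMUSG00000033585.5) lies on the plus strand of chromosome 7 at 62346569 to 62350262 of mm10 and is annotated with a single exon. None of its 50-base words occurs in another gene's transcripts.

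Grb10 encodes an adaptor that binds the activated insulin and IGF1 receptors and dampens their signal. It was at 15.4 FPKM in the SATB1-positive library and 21.8 FPKM in SATB1-negative HSCs, a fold of 0.704 (0.665 to 0.745; about 1865 and 3468 fragments). The log2 ratio of -0.48 was inside the rule of size, and 4.02% of genes with at least 10 FPKM had a lower one. The gene (ENSMUSG00000020176.17) spans 11930508 to 12038683 of chromosome 11, minus strand. It is the maternally expressed gene with the lowest fold among the 10.

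The other 3 genes whose intervals lay below 1 were scarce. Mest, which encodes a protein of the hydrolase fold family and is named for its expression in mesoderm, was at 0.823 FPKM in the SATB1-positive library and 1.75 FPKM in SATB1-negative HSCs, a fold of 0.469 (0.332 to 0.662; about 48 and 133 fragments). Its exons share 912 bases with those of Copg2 on the opposite strand, and 31.1% of its 50-base words occur in Copg2 transcripts. The strand setting of the counting is not given in the sources used here, so fragments of Mest and Copg2 may not have been told apart. Copg2, a coat protein gene, was at 17.4 and 26.4 FPKM, a fold of 0.659 (0.622 to 0.698). Peg3, a zinc finger gene, was at 0.128 FPKM in the SATB1-positive and 0.273 FPKM in SATB1-negative HSCs, a fold of 0.469 (0.296 to 0.724; about 29 and 81 fragments). Plagl1, also known as Zac1, encodes a zinc finger transcription factor that can halt the cell cycle and, in mouse, regulates other imprinted genes. It was at 0.222 and 0.427 FPKM, a fold of 0.520 (0.331 to 0.809; about 30 and 75 fragments). These 2 zinc finger genes shared no 50-base word with other genes.

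In mm10, Mest (ENSMUSG00000051855.15) spans 30723547 to 30748465 of chromosome 6 on the plus strand. Peg3 (ENSMUSG00000002265.16) spans 6703892 to 6730431 of chromosome 7 on the minus strand, and Plagl1 (ENSMUSG00000019817.18) spans 13060504 to 13131694 of chromosome 10 on the plus strand.

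The ligand gene Igf2, which encodes the fetal growth factor IGF2, was close to the floor. It was at 0.107 FPKM in the SATB1-positive and 0.214 FPKM in the SATB1-negative library, about 1 and 3 fragments of its shortest transcript, and the interval of its fold of 0.5002 ran from 0.00831 to 5.43. Taken over its longest transcript the same values stand for about 12.9 and 33.8 fragments, with an interval of 0.242 to 0.973, so whether the interval holds 1 turns on the transcript assumed. Of its 50-base words, 69.3% also occur in other annotated genes, nearly all in a same-strand transcript that spans the gene. Igf2r, the receptor that clears IGF2 and carries lysosomal enzymes tagged with mannose 6-phosphate, was at 3.53 FPKM in the SATB1-positive and 3.43 FPKM in the SATB1-negative library. With about 818 and 1038 fragments, its fold was 1.03 with an interval of 0.940 to 1.13. Igf2r (ENSMUSG00000023830.14) spans 12682406 to 12769664 of chromosome 17, minus strand.

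H19, a noncoding RNA that lies beside Igf2 and is cut to give miR-675, was at 0.279 FPKM in the SATB1-positive and 0.382 FPKM in the SATB1-negative library. Its fold of 0.732 had an interval of 0.378 to 1.43 on about 16 and 28 fragments, so a difference was not detectable at this depth. Meg3, the noncoding RNA of the Dlk1-Meg3 locus, was at 2.71 and 2.83 FPKM, a fold of 0.958 (0.751 to 1.21). In its case 12.2% of 50-base words occur in other annotated transcripts. Dlk1, which encodes a transmembrane protein related to Notch ligands, was at 0.849 and 0.707 FPKM, a fold of 1.20 (0.629 to 2.26; about 21 and 23 fragments). H19 (ENSMUSG00000000031.16, 142575529 to 142578143, minus strand) and Igf2 (ENSMUSG00000048583.16, 142650766 to 142666816, minus strand) lie within 250 kb of each other on chromosome 7. Dlk1 (ENSMUSG00000040856.17, 109452823 to 109463336, plus strand) and Meg3 (ENSMUSG00000021268.17, 109541001 to 109571726, plus strand) likewise lie close together on chromosome 12. In neither pair did the interval from the shortest transcript exclude 1, and that of Igf2 did with the longest. The miRNA genes within these transcripts and Mest (Mir675, Mir483, Mir770 and Mir335) were listed at 0 in both libraries, and the library preparation does not target small RNAs.

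Grouped by the parental copy that is usually expressed, the 6 paternally expressed genes had a median fold of 0.501, and the 4 maternally expressed genes one of 0.845. Igf2, Mest, Ndn, Peg3 and Plagl1 had folds between 0.469 and 0.520 and Dlk1 one of 1.20, while the maternally expressed genes ran from 0.704 (Grb10) to 1.03 (Igf2r). The paternal group thus contained both the lowest and the highest fold of the 10, and the groups overlapped. This grouping was made with the values known and was not tested.

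**Figure D3:**
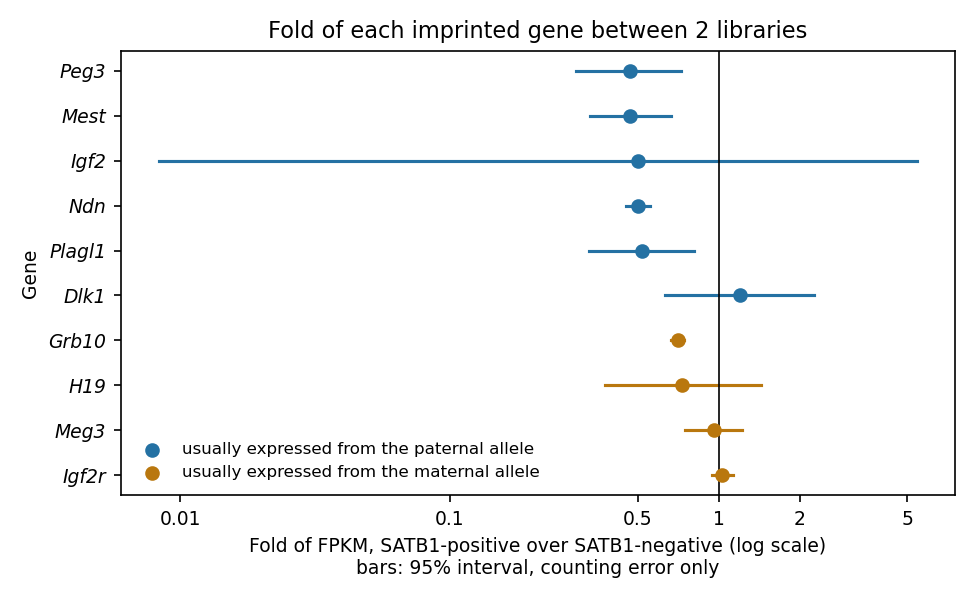
Fold of FPKM, SATB1-positive over SATB1-negative (log scale), of the 10 imprinted genes, grouped by the parental allele that is usually expressed. Bars are exact 95% intervals for counting error in 1 library a group. The interval lies below 1 for Peg3, Mest, Ndn, Plagl1 and Grb10, and that of Igf2 runs from 0.00831 to 5.43.

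Chromosomal neighbours were examined because imprinted genes lie in clusters. Within 250 kb of the 10 gene bodies, 118 other annotated genes had a row, of which 61 were small RNA genes. Of those 61, 60 were listed at 0 in both libraries. The exception was Mir433 near Meg3, at 8.19 FPKM in the SATB1-positive library and 0 in the SATB1-negative library; an RNA shorter than a sequenced fragment gives unstable FPKM. Among the 19 neighbours with at least 5 FPKM that were no small RNA genes, 12 had a log2 ratio above 0 and 7 below, with a median of 0.08 and a range of -0.57 to 0.38, and 0 met the rule of size. Copg2, beside Mest, had the lowest of these ratios.

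Both genes near Grb10 that reached 5 FPKM had ratios above 0. Ikzf1, which encodes the lymphoid factor Ikaros, was at 35.03 FPKM in SATB1-positive and 26.6 FPKM in SATB1-negative HSCs, and Fignl1 at 58.96 and 47.8 FPKM. Of the genes around Plagl1, Phactr2 had the lowest log2 ratio, -0.36, and Stx11, a gene of vesicle fusion in lymphocytes, the highest, 0.31. In the imprinted domain that holds Ndn, Magel2 was listed at 0 in both libraries, Mkrn3 was at 1.76 and 2.63 FPKM and Peg12 at 3.63 and 4.35 FPKM. Airn, the antisense RNA that silences the paternal Igf2r copy in mouse, was at 0.465 FPKM in the SATB1-positive and 1.60 FPKM in SATB1-negative HSCs, a fold of 0.292 (0.0716 to 0.883; about 4 and 18 fragments). It was chosen after its values were seen. Slc22a3, a cation transporter gene on the side of Igf2r away from Airn, was at 73.98 and 61.8 FPKM. Near H19 and Igf2, the lysosomal protease gene Ctsd was at 178 and 169 FPKM and the leukocyte gene Lsp1 at 116 and 129 FPKM.

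**Figure D4:**
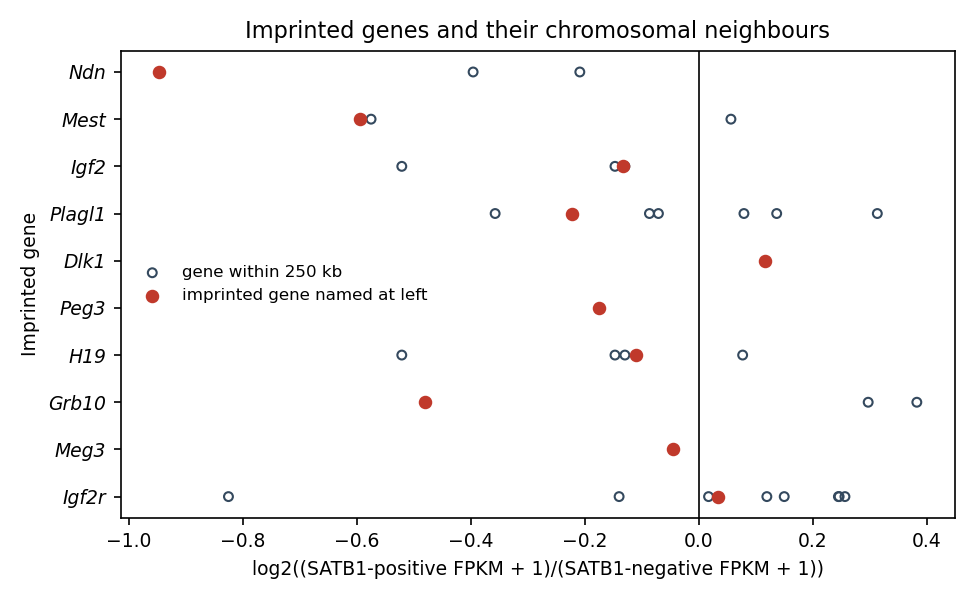
The log2 ratio of (SATB1-positive FPKM + 1) to (SATB1-negative FPKM + 1) of each imprinted gene (filled) and of the genes within 250 kb of it that reached 1 FPKM (open; miRNA genes are left out). Ndn at -0.95 and Grb10 at -0.48 lie left of all their plotted neighbours, whereas Igf2r at 0.03 lies among its own.

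Beyond the 10, a list of 64 other imprinted genes had 63 with a row and 36 that reached 1 FPKM. None of them met the rule of size in either direction. Whether each is imprinted in HSCs was not tested, since the values do not separate the parental copies. Of the 36, 25 had a log2 ratio below 0 and 11 above, and their median was -0.14, beside -0.0059 over 11873 genes at 1 FPKM. The lowest ratios among those with 5 FPKM belonged to Phlda2, a restrainer of placental growth, and Cdkn1c, which encodes the cyclin-dependent kinase inhibitor p57 that keeps mouse HSCs quiescent. Phlda2 was at 6.74 FPKM in the SATB1-positive and 13.9 FPKM in SATB1-negative HSCs, a fold of 0.484 (0.380 to 0.611). Cdkn1c was at 16.5 and 27.2 FPKM, a fold of 0.606 (0.555 to 0.662). The highest at that level were those of Gatm, a creatine synthesis gene, at 69.3 and 53.4 FPKM, and Slc22a3. Among the most abundant, Gnas, which encodes the stimulatory G protein subunit, was at 394 and 407 FPKM. The tetraspanin gene Cd81 was at 234 and 324 FPKM, and its relative Tspan32 at 123 and 146 FPKM.

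The route on which IGF2, its receptors and GRB10 act showed values on both sides. Of 48 IGF and insulin signalling genes, all with a row, 34 had at least 1 FPKM, 16 with a log2 ratio above 0 and 18 below. Their median was -0.02, and 0 met the rule of size in either direction. Among the 28 genes that reached 5 FPKM, the highest ratios were those of Igfbp4, an IGF-binding protein gene, at 155 FPKM in the SATB1-positive and 97.9 FPKM in the SATB1-negative library, and Irs2, an insulin receptor substrate gene, at 17.3 and 10.6 FPKM. The lowest were those of Igf2bp2, an RNA-binding protein gene, at 6.34 and 9.52 FPKM, and Pdpk1, a kinase gene of the AKT route, at 17.9 and 23.8 FPKM. M6pr, the second mannose 6-phosphate receptor gene, was at 209.97 and 230 FPKM and the adaptor gene Grb2 at 110.05 and 90.7 FPKM. Below 5 FPKM lay the extremes of the 34, Igfbp7, another IGF-binding protein gene, at 2.86 and 0.911 FPKM, and Insrr, an insulin receptor relative, at 0.840 and 2.09 FPKM, both chosen after these values were seen. Igf1r, the receptor gene through which IGF2 signals, was at 8.02 and 9.16 FPKM and was chosen after these values were seen.

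Genes that set or protect imprints lay mostly above 0. Of 39 such genes, 32 had at least 1 FPKM, 26 with a log2 ratio above 0 and 6 below, with a median of 0.18. Satb1 itself, on whose reporter the cells were sorted, was the 1 that met the rule of size. Dnmt1, the maintenance DNA methyltransferase that copies imprints at replication, was at 111 FPKM in the SATB1-positive and 64.5 FPKM in SATB1-negative HSCs, a fold of 1.72. Trim28, the partner of ZFP57, was at 118 and 97.3 FPKM, the cohesin gene Smc1a at 128 and 114 FPKM, and the deacetylase gene Hdac1 at 115 and 119 FPKM. Zfp57, whose motif is marked above, had the lowest ratio of the 32, at 0.744 FPKM in SATB1-positive and 1.24 FPKM in SATB1-negative HSCs, and was chosen after its values were seen. Among those that reached 5 FPKM the lowest were Arid4b and Arid4a, at 16.7 and 20.2 FPKM and at 21.8 and 23.9 FPKM. Mki67, a proliferation marker, was at 81.4 and 46.5 FPKM; its part in the Dnmt1 value was not tested.

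Cell cycle genes that necdin, p57 and PLAGL1 act beside were mixed. Of 21 genes of the list of cell cycle inhibitors and the p53 route, 19 had at least 1 FPKM, 11 with a log2 ratio above 0 and 8 below. Gfi1, a repressor that restrains HSC cycling, met the rule as higher, at 14.4 FPKM in the SATB1-positive and 5.37 FPKM in the SATB1-negative library. Ccnd1, which encodes cyclin D1, met it as lower, at 3.51 and 8.19 FPKM. Trp53, which encodes p53, was at 257 and 184 FPKM, Cdk4 at 310.1 and 277 FPKM and Ccnd3 at 160.4 and 175 FPKM. The median of this list was 0.03. Of 15 Notch route genes listed as partners of DLK1, 10 had at least 1 FPKM, 5 on each side of 0, with a median of -0.02. Hes1, a Notch target and repressor, met the rule as lower, at 68.9 FPKM in the SATB1-positive and 149.7 FPKM in the SATB1-negative library. Hey1, another target, was at 5.14 and 8.67 FPKM, Rbpj, the DNA-binding partner of Notch, at 26.6 and 20.02 FPKM, and the proteases Adam17 and Adam10 at 23.3 and 18.3 FPKM and at 86.7 and 93.1 FPKM.

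In bulk samples, fewer cells of a type and less RNA per cell cannot be told apart, so markers of HSCs and of other cells are given beside the imprinted genes. The list of 18 HSC markers also holds Flt3, for which the cells were sorted as negative, and the later progenitor marker Cd48. All 18 listed genes were expressed. They summed to 1509 FPKM in the SATB1-positive and 1636 FPKM in the SATB1-negative library, and 14 had a log2 ratio below 0 and 4 above. Their median was -0.43, close to the value of Grb10. Kit, the receptor gene used in the sort, was at 286 and 318 FPKM. Esam, a surface marker of long-term HSCs, was at 34.2 and 68.5 FPKM, and Vwf, a gene of platelet-biased HSCs, at 6.79 and 12.3 FPKM. On the other side lay Cd34, at 248 and 167 FPKM, Flt3, at 27.1 and 17.3 FPKM, and Cd48, a marker of later progenitors, which met the rule as higher at 145 and 47.6 FPKM. The part that these markers have in the lower imprinted gene values was not tested.

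Mesenchymal stromal cells also express H19, Igf2, Dlk1, Meg3, Mest and Peg3. Of 18 stromal markers, 8 had at least 1 FPKM, and their summed level over all 18 was 126 FPKM in the SATB1-positive and 78.2 FPKM in the SATB1-negative library. Col1a1, Col1a2, Sparc and Pdgfrb met the rule of size as higher, Col1a1 at 48.3 and 16.8 FPKM, while Bgn was at 9.44 and 17.2 FPKM and Runx2 at 15.9 and 17.02 FPKM. No stromal marker was at 0 in both libraries, but Col3a1, Pdgfra, Lepr and Prrx1 were each under 0.2 FPKM in both. Of the 8 stromal markers at 1 FPKM, 4 had a log2 ratio above 0 and 4 below. Endothelial markers, which include Esam and Vwf, summed to 112 and 172 FPKM over 11 genes, 4 of the 6 at 1 FPKM with a ratio below 0. Cdh5, which defines mature endothelium, was at 0.00989 and 0.0837 FPKM. T and NK cell markers summed to 393 and 169 FPKM, most of it from Nkg7 at 313 and 152 FPKM, and 7 of 13 met the rule of size as higher. Basophil and mast cell markers summed to 556 and 155 FPKM, and 5 of 5 met it as higher. Neutrophil markers summed to 3211 and 1560 FPKM, most of it from Mpo (1528 and 437 FPKM) and Elane (1081 and 490 FPKM). Mpo, Elane and Ctsg were higher by the rule of size, but 4 of the 8 (Camp, Ltf, Ngp and S100a8) had a ratio below 0 and the median was -0.06. Erythroid markers summed to 56.6 and 52.9 FPKM, with 1 of 5 higher. Beside these counts, 1.31% of all 9308 genes that reached 5 FPKM were called higher. Hepatocyte markers, which would mark fetal liver, summed to 1.77 and 2.17 FPKM. The part that RNA of other cell types has in the values of the 10 imprinted genes was not tested.

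**Figure D5:**
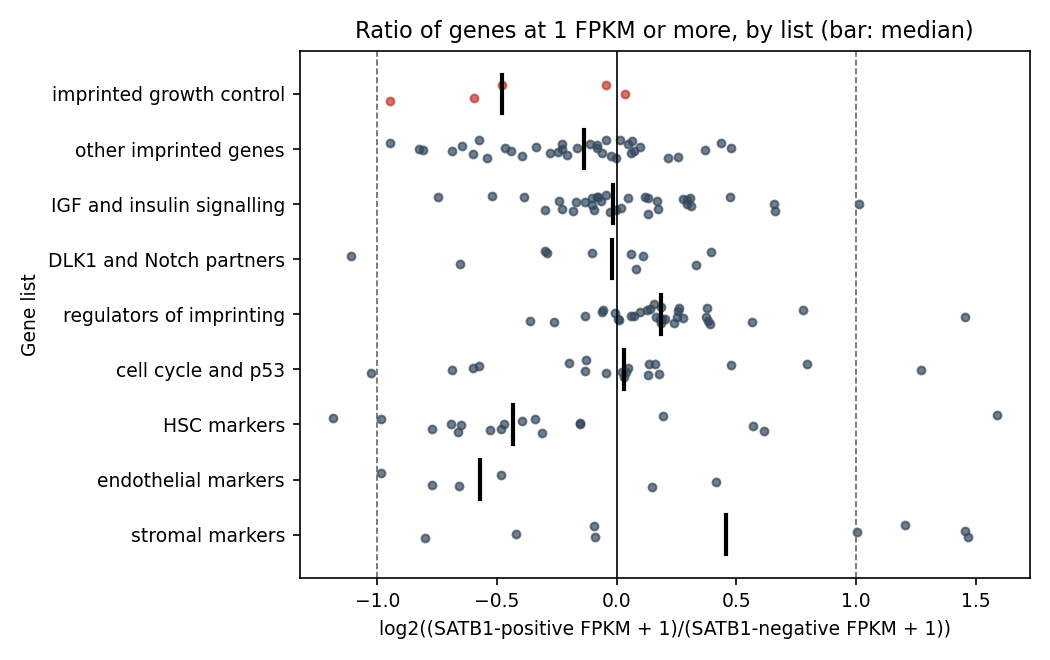
The log2 ratio of (SATB1-positive FPKM + 1) to (SATB1-negative FPKM + 1) of genes that reached 1 FPKM, by gene list, with 1 point a gene and a bar at the median. Medians are -0.48 for the 5 imprinted growth control genes that reached 1 FPKM (Mest through the SATB1-negative library alone), -0.14 for other imprinted genes, 0.18 for regulators of imprinting and -0.43 for HSC markers.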

How the data were processed

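The authors deposited FPKM, 1 file a library. Cufflinks 2.2.1, SAMtools 0.1.19, Bowtie2 2.2.3, TopHat2 2.0.13 and build mm10 are named in the submitters' processing notes. The tools' roles, the annotation and the strand setting were not given in the sources used here. Per the labels' protocols, total RNA from the miRNeasy kit went into Clontech SMARTer Stranded libraries. Of 23235 rows a file, 25 with symbols turned into dates were left out.

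FPKM were used without scaling. Low FPKM of genes that have 1 exon and 1 transcript in GENCODE M21 step by 1 fragment, which gave the depth. With a length offset of 205 bases, 65.0% of 197 values in the SATB1-positive and 65.9% of 164 in the SATB1-negative library were whole within 0.05 fragments, against 10% for a random depth; the depths were chosen for this share. In simulated data from 26680000 and 34920000 fragments the procedure returned 26520000 and 34720000. The simulation drew whole counts with the same lengths and offset. It therefore checks the search, and cannot show whether the deposited FPKM follow that length model. One fragment over 1 kb is worth 0.0375 and 0.0286 FPKM. Fragments per gene used the shortest RefSeq-linked transcript, or the gene's length in RefSeq where that was shorter. A usable length was found for 85.4% of symbols. Clopper-Pearson intervals used SciPy 1.17.1.

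The genes and lists were chosen with earlier results of these data known. Named genes were the 10, Satb1, list members past the rule of size, the 3 most abundant, the 2 highest and 2 lowest ratios at 5 FPKM, and neighbours at 5 FPKM. Of the lists for other cell types, sums are given in place of most genes. One gene that the rule names is not reported here. Alternatives were pseudocounts of 0.1 and 5, 3 scalings, minimums of 1 and 10 FPKM, a 4-fold threshold, other filters and the longest transcript.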

Additional observations from a re-analysis of the deposited data

How the results depend on the processing

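No replicate could be left out and no paired analysis was possible because each group had 1 library. Over the pseudocounts and scalings, 50 values in all, the log2 ratios of the 10 imprinted genes kept their signs. That of Ndn ran from -0.99 (pseudocount of 0.1) to -0.79 (pseudocount of 5), never past the rule of size, and that of Mest from -1.01 to -0.21. Scaling by the median ratio or the upper quartile shifted FPKM ratios by at most 0.0054 on the log2 scale. TPM, whose values are about double against the same pseudocount, gave -0.77 for Mest, -0.36 for Plagl1, -0.30 for Peg3 and -0.23 for Igf2. With the longest transcript in place of the length used, the interval of Igf2 was 0.242 to 0.973, and no other of the 10 intervals changed its side of 1. The count of the 10 genes past the threshold was 0 under each pseudocount, scaling, minimum and the 4-fold threshold. It was 2 with a plain 1.5-fold threshold at 1 FPKM and 5 at 0.1 FPKM, both chosen after seeing the data; these thresholds are looser.

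Counts in other lists turned on single genes. With a pseudocount of 0.1, 1 other imprinted gene passed as lower. With TPM, or a minimum of 1 FPKM, 1 IGF and insulin signalling gene passed as higher. The 1 regulator of imprinting became 0 with a pseudocount of 5, a minimum of 10 FPKM or a 4-fold threshold. The 1 cell cycle gene passing as higher became 0 with a pseudocount of 5 or a 4-fold threshold, and the 1 passing as lower became 0 with these and with a minimum of 10 FPKM. The 1 Notch route gene passing as lower became 0 with a 4-fold threshold. The number of all genes called was 122 higher and 64 lower, 68 and 36 with a pseudocount of 5, and 174 and 100 with TPM. Depth limits Igf2, H19 and Dlk1, for which at most 28 fragments of the shortest transcript were estimated in either library.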

Other observations

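Imprinted genes other than those described lay on both sides of 0, and the following were chosen after their values were seen. Snrpn, a splicing factor gene of the imprinted region of chromosome 7 that also holds Ndn, was at 0.384 FPKM in the SATB1-positive and 1.42 FPKM in SATB1-negative HSCs, a fold of 0.270 (0.155 to 0.459; about 18 and 86 fragments). Snurf, which shares its transcript, was at 0.336 and 0.987 FPKM, so the split between them is uncertain. Ube3a, the ubiquitin ligase gene of the same region, was at 35.6 and 33.8 FPKM.

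In the imprinted cluster around Peg10 and Sgce on chromosome 6, Sgce, a sarcoglycan gene, was at 12.6 FPKM in the SATB1-positive and 19.5 FPKM in SATB1-negative HSCs, a fold of 0.643 (0.575 to 0.718). The paraoxonase gene Pon3 was at 19.3 and 22.8 FPKM and Pon2 at 38.1 and 39.7 FPKM, while Peg10 was at 0.122 and 0.0757 FPKM. Begain, near Dlk1, was at 0.9996 and 2.13 FPKM, a fold of 0.469 (0.351 to 0.627). Dcn, which stromal cells also express, was at 0.706 and 0.137 FPKM, a fold of 5.16 (2.32 to 14.7; about 29 and 7 fragments).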
